A study of Homo sapiens with 44 samples.

Results

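Gene expression was compared directly between hairpins against the 2 paralogs of glycogen synthase kinase 3, GSK3A and GSK3B, in HL-60 cells, with no control array in the comparison. HL-60 is an established human promyelocytic leukemia line. The members were chosen from the labels: the HL-60 arrays with a GSK3A hairpin (constructs 5 and 6, called A-5 and A-6, 4 arrays) and the HL-60 arrays with a GSK3B hairpin (constructs 1 and 2, called B-1 and B-2, 4 arrays), which are 8 of the 44 arrays of the series. The other arrays carry HL-60 with a scrambled hairpin (3 arrays) and the lines THP-1, MOLM-14 and U937 with the same 5 hairpins. Per the labels, all cells were infected with a short hairpin RNA, selection in puromycin at 1 µg per mL started 48 h after infection, and RNA was taken 48 h later, so the scrambled control went through infection and selection as well. Every group is a single line with 2 constructs per target and 2 replicate arrays per construct. The labels call the replicates biological and give nothing about separate infections. The p-values therefore measure the spread between replicate arrays, pooled over the 44 arrays of all lines, which may be technical.

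GSK3A and GSK3B are separate genes for the 2 forms of this kinase, alpha and beta, which share most of their kinase domain. The kinase is active in resting cells and phosphorylates glycogen synthase, beta-catenin, MYC and many other proteins, which in the case of beta-catenin and MYC marks them for degradation. HL-60 cells are blocked at the promyelocyte, a stage that makes primary granule proteins, and are widely used because agents can drive them toward monocytes or granulocytes.

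The 8 arrays were alike in overall signal, with median deposited intensity of 18.95 to 20.1, and replicate arrays of a construct correlated across genes, which are not independent replicates, at 0.998. HL-60 identity was checked on the granule enzyme MPO, which read 4178 to 5640 on the hairpin arrays and at most 123 on any array of the other lines. MYC, which is amplified in this line, read 4454 to 8395 against 1107 to 5625, and these ranges overlap. Other granule genes were not high in HL-60 alone: ELANE (1706 to 3217), PRTN3 (547 to 1612) and AZU1 (79.8 to 173) overlapped the other lines, and CTSG (554 to 1612) lay below them (2323 to 9649.9). The class II genes did not separate HL-60 either, with HLA-DRA at 8.87 to 13.3 and CD74 at 80.6 to 102 against medians of 19.03 and 118 in the other lines. CDKN2A had been listed as a gene HL-60 lacks, yet its probe set read 59.3 to 78.2, above the median of 10.2 in the other lines, so it did not serve as a check. Of markers of other blood and tissue cells, 0 of 16 erythroid, 0 of 13 megakaryocyte, 0 of 20 T and NK cell and 0 of 12 B cell markers passed the test described below, and 1 of 18 epithelial and stromal markers (VIM, vimentin, which myeloid cells make too) did. Most of these markers are dim here: at a mean intensity of 30 or more, 2 erythroid, 1 megakaryocyte, 1 T and NK cell, 0 B cell and 1 epithelial and stromal marker remain, so these counts say little about such cells.

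The targeted transcripts were examined first. GSK3B had deposited intensities of 208 and 203 with A-5, 181 and 152 with A-6, 52.5 and 54.3 with B-1, and 41.6 and 32.05 with B-2. The 4 GSK3B hairpin arrays lay far below the 4 GSK3A hairpin arrays, with no overlap, and the GSK3A arrays lay where the scrambled controls did (187 ± 14.5, SD, n = 3). The means were 185.9 ± 25.6 with GSK3A hairpins and 45.1 ± 10.4 with GSK3B hairpins (SD, n = 4 each), a difference of 1.65 ± 0.09 on the scale log2(intensity + 16) (limma, adjusted p = 3.01e-13). Here and below an error after ± not marked SD is a standard error from the fit, a difference is GSK3A hairpins minus GSK3B hairpins, and the pseudocount of 16 makes the differences of dim genes smaller than those of their intensities.

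The GSK3A transcript was lower with its own hairpins by little. Its brighter probe set read 44.4, 45.0, 45.4 and 46.7 with GSK3A hairpins and 47.3, 54.2, 52.6 and 51.2 with GSK3B hairpins. These sets of 4 did not overlap in deposited intensity but did after normalization, and the difference of −0.13 ± 0.05 missed the threshold (limma, adjusted p = 0.0988, 95% interval −0.24 to −0.03 without adjustment). The dimmer probe set read 21.03 ± 1.36 and 24.1 ± 4.04 (SD, n = 4 each), a difference of −0.14 ± 0.06 (limma, adjusted p = 0.196 over all probe sets). Against the scrambled controls the GSK3A hairpins changed the brighter probe set by −0.20 (limma, adjusted p = 0.0139). The array therefore separates the groups clearly on GSK3B and weakly on GSK3A. Protein levels were not analysed here.

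Of 12165 genes, 1286 (10.6%) differed between the targets at an adjusted p under 0.05 (limma, two-sided, Benjamini-Hochberg over all genes): 633 (5.2%) were higher and 653 (5.37%) lower with GSK3A hairpins. Most differences were small, with a median size of 0.35 among the genes that passed, and 22 genes were at least 2-fold higher and 4 at least 2-fold lower. The median over all genes was −0.002. By a count that uses no model, 1287 genes (10.6%) had no overlap in normalized intensity between the 4 arrays of one target and the 4 of the other, and 640 genes met both demands, 333 of them higher and 307 lower. This count rests on replicate arrays. With the hairpin as the unit of replication, on hairpin means fitted over all lines, 24 genes (0.197%) passed, and the differences of the 4 hairpin means of HL-60 alone gave 0 genes in limma (727 at an unadjusted p under 0.05). With construct as a random block in the 8 arrays, an alternative added after the data were seen, 35 genes passed.

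Hairpins of one target also differed from each other. A-5 and A-6 differed in 831 genes (6.83%), and B-1 and B-2 in 918 (7.55%), in comparisons of 2 arrays against 2, while the 1286 genes come from 4 against 4. The 4 pairings of a GSK3A with a GSK3B construct, which share constructs, gave 1912 genes for A-5 minus B-2 (15.7%), 1052 for A-6 minus B-2 (8.65%), 673 for A-5 minus B-1 (5.53%) and 402 for A-6 minus B-1 (3.3%). Of the 1286 genes, 923 had the same sign in every pairing, and 47 passed in each. The count fell to 664 without A-5 and to 469 without B-2, and was 1423 without A-6 and 1683 without B-1.

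**Figure D1:**
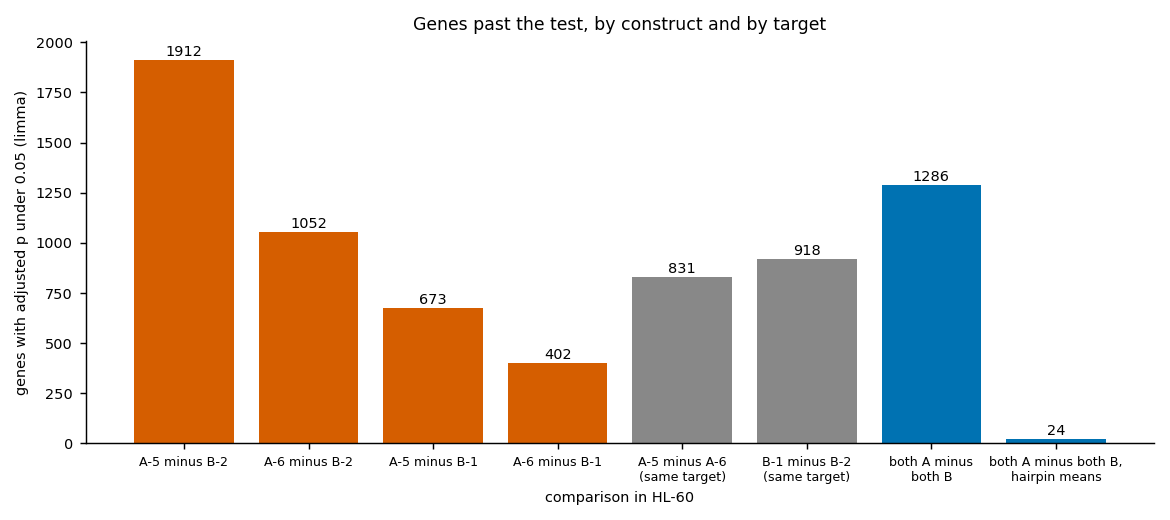
Number of genes with adjusted p under 0.05 (limma, vertical axis) for each pairing of a GSK3A with a GSK3B construct (orange), for the constructs of one target (grey) and for the targets (blue), the last bar with hairpin means as the unit. A reader should see that A-5 and A-6 differ in 831 genes and B-1 and B-2 in 918, against 1286 between the targets and 24 with hairpin means.

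Among the genes that passed without overlap, the largest higher differences were of CD86, TREM1 and the target GSK3B. CD86, a costimulatory receptor of monocytes and dendritic cells, had intensities of 212 and 233 with A-5, 198 and 159.9 with A-6, 70.1 and 70.4 with B-1 and 28.1 and 22.4 with B-2. Both GSK3A constructs stood above both GSK3B constructs, and B-1 read like the controls (69.2 on average). The difference was 1.78 ± 0.25 (limma, adjusted p = 1.32e-05), and a second CD86 probe set gave 0.81. CLEC7A, the receptor dectin-1 for fungal glucans, read 104, 107, 116 and 125.5 with GSK3A hairpins, 53.8 and 39.3 with B-1, and 17.9 and 24.3 with B-2. Its difference was 1.35 ± 0.07 (adjusted p = 3.01e-13), and it passed in all 4 pairings, as did KCTD12 and CD1D. KCTD12, a protein that associates with GABA-B receptors, lay between 318 and 357 with GSK3A hairpins and between 119.7 and 173 with GSK3B hairpins, a difference of 1.09 ± 0.11 (adjusted p = 1.13e-07). CD1D, which presents lipids to NKT cells, averaged 92.2 ± 13.5 and 32.5 ± 11.2 (SD, n = 4 each), a difference of 1.11 ± 0.13.

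For another set of genes the step between A-5 and A-6 was wider than that between B-1 and B-2. TREM1, an amplifying receptor of inflammation on monocytes and neutrophils, read 214 and 292 with A-5, 46.3 and 37.3 with A-6, 28.7 and 31.9 with B-1, and 17.1 and 11.6 with B-2. The groups did not overlap, but A-6 stood just above B-1. The mean difference was 1.70 ± 0.23 (limma, adjusted p = 8.67e-06), with 2.44 for A-5 minus B-1 and 0.30 for A-6 minus B-1 (adjusted p = 0.883). CD14, the lipopolysaccharide co-receptor that marks monocytes, read 1039.6 and 1144 with A-5, 379 and 354 with A-6, 347 and 355 with B-1, and 154 and 137 with B-2. Only A-5 stood apart upward and B-2 downward, and A-6 and B-1 read alike. The mean difference was 1.41 ± 0.06 (adjusted p = 2.61e-15), and that of A-6 minus B-1 was 0.07 (adjusted p = 0.906). CX3CR1, the fractalkine receptor of monocytes, read 119.7 and 113 with A-5, 24.2 and 21.01 with A-6, and 10.5 to 15.7 with GSK3B hairpins, a difference of 1.28 ± 0.10 (adjusted p = 6.49e-10). The glycolytic enzyme HK1 had a difference of 1.12 ± 0.17, with 0.99 for A-5 minus A-6 and 0.80 for B-1 minus B-2.

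For other genes the wider step lay between B-1 and B-2. PTX3, a secreted pattern recognition protein, was even over the GSK3A arrays at 336 to 349 and read 216 and 224 with B-1 and 63.8 and 85.3 with B-2. The difference was 1.28 ± 0.16 (limma, adjusted p = 3.07e-06). HP, haptoglobin, read 578 to 803 with GSK3A hairpins, 362 and 399 with B-1 and 138 and 151 with B-2, a difference of 1.41 ± 0.12 (adjusted p = 4.98e-09). A second HP probe set went the other way, at −0.29 (adjusted p = 0.0471), so the probe sets disagree. The calcium-binding proteins S100A6 (1.17 ± 0.08) and S100A4 (1.10 ± 0.09) had steps of 0.71 and 0.75 for A-5 minus A-6 and of 1.06 and 1.07 for B-1 minus B-2. TSC22D3, a glucocorticoid-induced regulator (1.16 ± 0.24), and TRAF3IP3, an adaptor that binds TRAF3 (1.11 ± 0.13), complete the 15 largest, which include GSK3B itself. All 15 had 1 sign in the 4 pairings, which the demand for no overlap fixes in advance. For 10 of the 15, the constructs of one target also differed from each other.

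**Figure D2:**
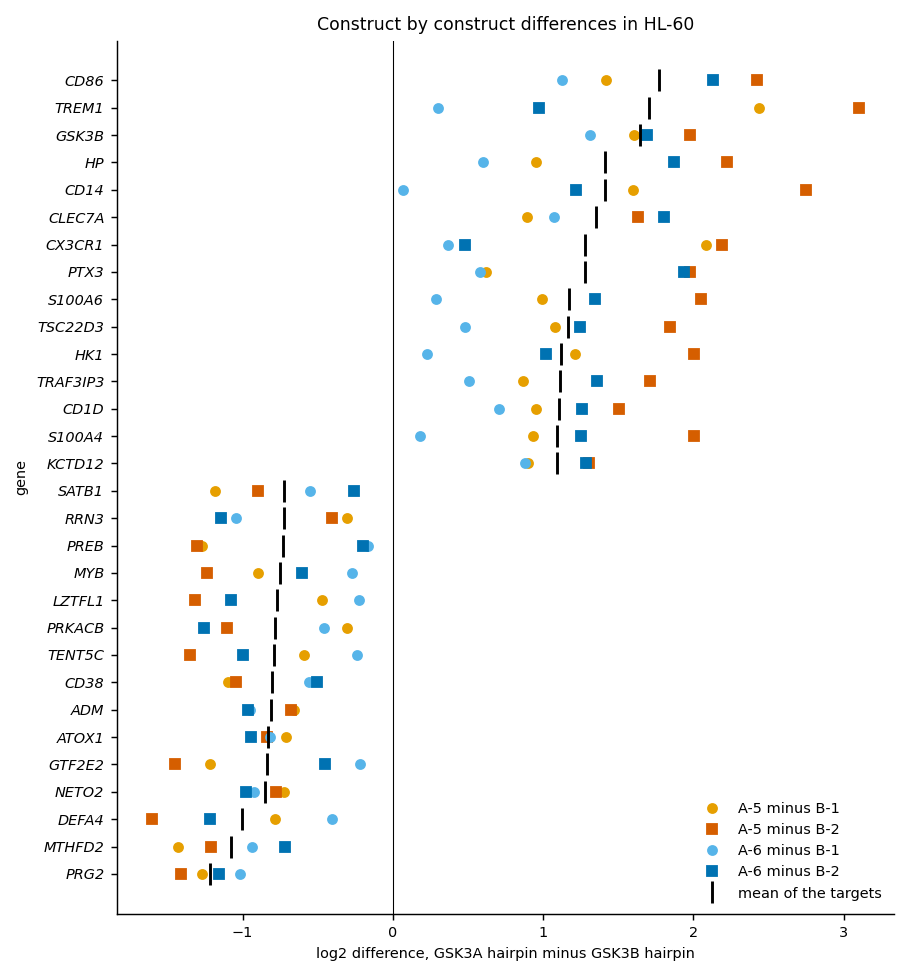
The 15 highest and 15 lowest differences among genes that passed without overlap (vertical axis), with the log2 difference of each GSK3A construct minus each GSK3B construct (points, horizontal axis) and their mean (black bars). For CD14 the points run from 0.07 (A-6 minus B-1) to 2.75 (A-5 minus B-2), while for KCTD12 they run from 0.88 to 1.30 and for PRG2 from −1.41 to −1.02.

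The largest lower differences included granule proteins of the promyelocyte and eosinophil. PRG2, the major basic protein of eosinophil granules, read 1087 and 998 with A-5, 1343 and 1157 with A-6, 2523 and 2721 with B-1, and 2828 and 2901 with B-2. The 2 targets stood on either side of the scrambled controls, which read 1443 to 1574. The difference was −1.21 ± 0.06 (limma, adjusted p = 4.85e-14), with −0.36 against control for GSK3A hairpins and 0.85 for GSK3B hairpins (adjusted p = 2.36e-04 and 9.96e-10). DEFA4, a defensin of primary granules, read 23.8 to 41.0 with GSK3A hairpins, 55.8 and 50.9 with B-1, and 105 and 115 with B-2, against 38.9 to 53.1 in the controls. It too parted in both directions, by −0.41 and 0.60, and its difference was −1.003 ± 0.06 (adjusted p = 1.24e-12). The comparisons with control share the 3 control arrays.

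MTHFD2, a mitochondrial enzyme of the folate pathway that is high in dividing cells, read 554 and 513 with A-5, 754 and 727 with A-6, and 1257 to 1525 with GSK3B hairpins. The GSK3B arrays read like the controls (1456 on average), and the difference was −1.07 ± 0.13 (limma, adjusted p = 2.29e-06). ATOX1, the copper chaperone of the secretory pathway, was the most even of these genes, at 494 to 552 with GSK3A hairpins and 888 to 1020.4 with GSK3B hairpins (−0.83 ± 0.12, adjusted p = 3.14e-05). NETO2, an auxiliary subunit of kainate receptors, read 160.2 to 193 and 318 to 367 (−0.85 ± 0.10), and ADM, the vasodilator peptide adrenomedullin, 15.96 to 25.5 and 41.0 to 52.0 (−0.81 ± 0.06). PRG2, MTHFD2, DEFA4, NETO2, ATOX1 and ADM each passed in all 4 pairings.

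MYB, a transcription factor of hematopoietic progenitors, read 778 and 781 with A-5, 1222 and 1206 with A-6, 1483 and 1513 with B-1, and 1866 and 1875 with B-2. The groups did not overlap, with A-5 lowest, and the difference was −0.75 ± 0.09 (limma, adjusted p = 1.67e-06). A second MYB probe set gave −0.26 (adjusted p = 0.463). RRN3, which recruits RNA polymerase I to ribosomal DNA, leaned on the other GSK3A construct, at 182 and 159 with A-5, 95.3 and 93.4 with A-6 and 209 to 248 with GSK3B hairpins (−0.72 ± 0.08). GTF2E2, a subunit of the general factor TFIIE, leaned on A-5, at 99.6 and 101 with A-5, 211 and 225 with A-6 and 248 to 315 with GSK3B hairpins (−0.83 ± 0.07). The rest of the 15 were CD38 (−0.80 ± 0.16), an ectoenzyme of maturing blood cells, TENT5C (−0.79), PRKACB (−0.78), a catalytic subunit of protein kinase A, LZTFL1 (−0.77), PREB (−0.73) and the chromatin organizer SATB1 (−0.72). PREB leaned on A-5, at 150 and 159 with A-5 and 345 to 423 on the other hairpin arrays. TENT5C, PRKACB and LZTFL1 leaned on B-2, with B-1 minus B-2 at −0.76, −0.80 and −0.85. For 9 of these 15 lower genes, the constructs of one target also differed from each other.

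**Figure D3:**
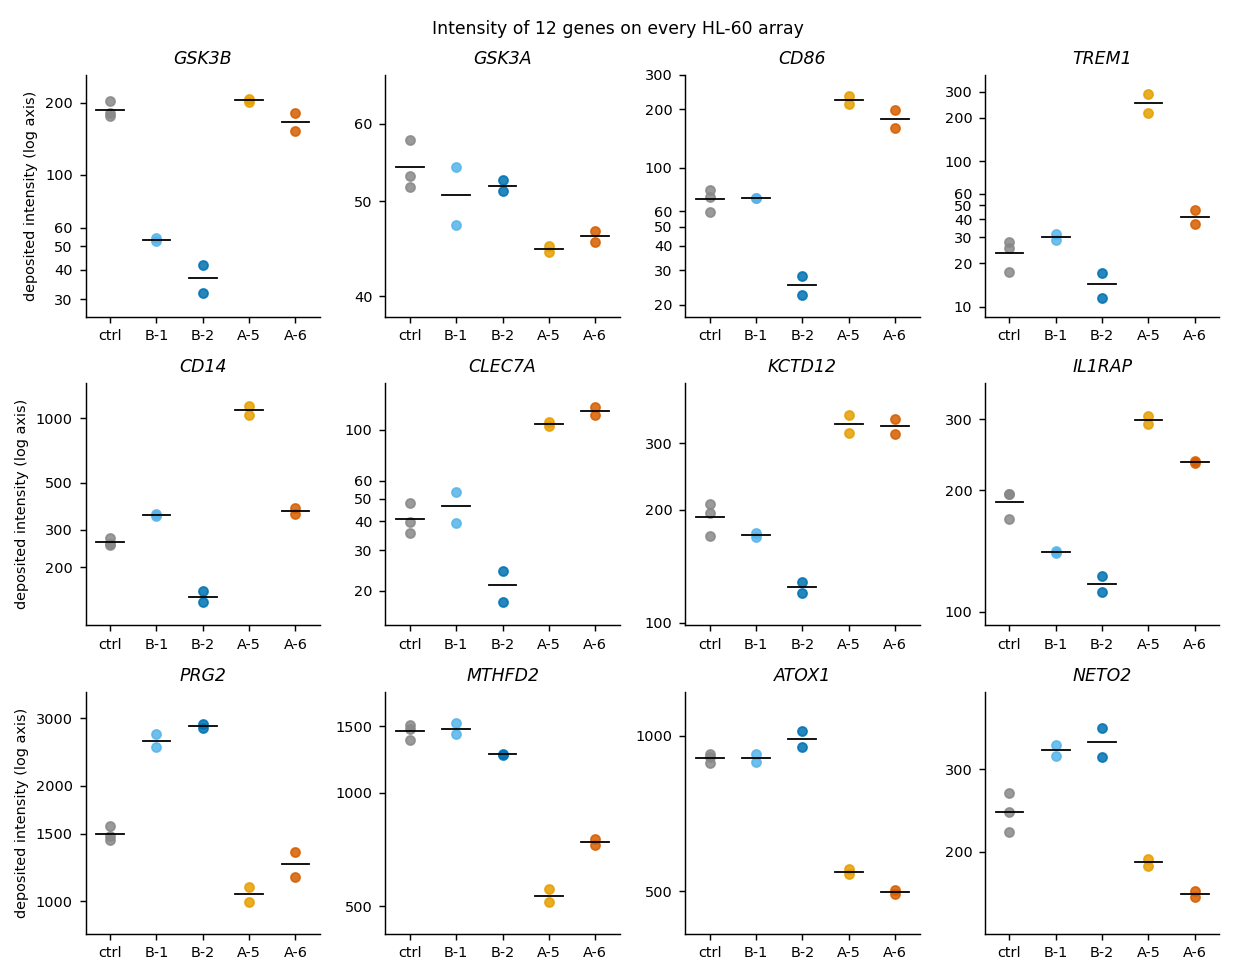
Deposited intensity (log axis) on each HL-60 array for 12 genes, with scrambled control (ctrl), GSK3B constructs (B-1, B-2) and GSK3A constructs (A-5, A-6), points for arrays and bars for means. GSK3B falls only with its own hairpins, CLEC7A, KCTD12, ATOX1 and NETO2 are even over both GSK3A constructs, and CD14 and TREM1 are highest with A-5.

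The sign of a difference does not tell which target moved from the control level. All 15 of the lower genes and 14 of the 15 higher genes (all but GSK3B) passed for GSK3A hairpins minus control. For GSK3B hairpins minus control, GSK3B (−1.68) and CX3CR1 (−0.46) passed among the higher genes, and PRG2 (0.85), DEFA4 (0.60) and NETO2 (0.41) among the lower. Over all genes, 1097 (9.02%) differed from control with GSK3A hairpins and 120 (0.986%) with GSK3B hairpins, in comparisons that share the controls. Each comparison takes the mean of 2 constructs, so opposite moves of the constructs can cancel. HP averaged 381 with B-1 and 145 with B-2, against 224 in the controls, and its mean GSK3B difference from control was 0.06. A mean can also pass through 1 construct. CX3CR1 averaged 116 with A-5 and 22.6 with A-6, against 23.4 in the controls, and PREB 155 and 356, against 383. B-1 and B-2 differed from each other in 918 genes (7.55%), and A-5 and A-6 in 831 (6.83%).

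The promoters of the 15 higher and 15 lower genes were searched for 5 motifs on both strands, in the 250 bases before the gene start in RefSeq sequence (GRCh38.p14), available for 13 and 12 of them. The motifs were TGATGNAA (the CARE element of ATF4), TCACNCCAC (the sterol element of SREBP2), GTCACGTG (the CLEAR element of TFEB), CTTTGAT (TCF/LEF) and GAGGAAGT (ETS factors such as PU.1). The CARE letters were found in 2 of 13 promoters of higher genes (15.4%), against 1.96% of the promoters of all measured genes and 3.19% of all promoters, and the ETS letters in 1 of 12 of lower genes (8.33%), against 2.14% and 2.13%. These promoters are shown 5′ to 3′ on the gene's strand, because they are the ones with a match, which stands in capitals in either orientation. TREM1 is at chr6:41286683-41286932 (minus strand), HK1 at chr10:69269750-69269999 (plus strand) and SATB1 at chr3:18445593-18445842 (minus strand).
TREM1: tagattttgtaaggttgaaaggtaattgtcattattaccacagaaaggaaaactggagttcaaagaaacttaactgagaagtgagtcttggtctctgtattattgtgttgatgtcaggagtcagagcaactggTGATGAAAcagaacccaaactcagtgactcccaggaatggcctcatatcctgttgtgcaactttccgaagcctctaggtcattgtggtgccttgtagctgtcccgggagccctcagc
HK1: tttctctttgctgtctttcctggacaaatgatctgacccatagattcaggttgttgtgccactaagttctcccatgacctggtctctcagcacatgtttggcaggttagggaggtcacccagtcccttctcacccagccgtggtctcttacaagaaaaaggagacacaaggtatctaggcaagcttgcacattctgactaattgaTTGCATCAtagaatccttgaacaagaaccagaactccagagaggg
SATB1: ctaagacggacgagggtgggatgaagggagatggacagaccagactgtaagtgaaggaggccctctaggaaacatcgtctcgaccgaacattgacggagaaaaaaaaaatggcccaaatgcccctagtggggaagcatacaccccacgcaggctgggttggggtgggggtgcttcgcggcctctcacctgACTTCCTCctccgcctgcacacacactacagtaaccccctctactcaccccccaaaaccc
A match is a run of letters and not a measured site. No top gene's promoter held the TCF/LEF, sterol or CLEAR letters in this window.

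Mature monocyte genes were higher with GSK3A hairpins in 17 of 44 measured members and lower in 0, with a median difference of 0.30 against −0.002 over all genes, where 5.2% were higher. Beside CD86, TREM1, CD14, CLEC7A and CX3CR1, the members that passed were CCR1, a chemokine receptor (1.13), VCAN, the proteoglycan versican (0.86), LGALS3, the lectin galectin-3 (0.83), CD36, a scavenger receptor (0.73), AIF1, a calcium-binding protein of macrophages (0.70), KLF4, a transcription factor of the monocyte lineage (0.64), the ribonuclease RNASE6 (0.61), and also LILRB2, FPR1, SLC11A1, LILRA2 and TYROBP. AIF1 and CD36 did not overlap between targets, while CCR1 and LGALS3 did, with A-6 minus B-1 at −0.01 and −0.27. Of the 17, 11 had the same sign in all pairings. By pairing, the median was 0.58 for A-5 minus B-2, 0.27 for A-6 minus B-2, 0.23 for A-5 minus B-1 and 0.02 for A-6 minus B-1, where 3 members were higher and 2 lower. The count was 10 without A-5 and 7 without B-2, and 2 with hairpin means of all lines (CLEC7A and CD86). Not every marker differed between the targets. The integrin ITGAM was at −0.01 ± 0.11 (limma, adjusted p = 0.993), as a mean of differences of both signs. They ran from 0.77 for A-5 minus B-2 to −0.79 for A-6 minus B-1. CSF1R, the receptor for the growth factor of monocytes, was at 0.13 (limma, adjusted p = 0.326).

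Receptors for cytokines and chemokines on myeloid cells were higher in 10 of 33 and lower in 0, with a median of 0.13, where 5.2% of all genes were higher. The median was 0.36 for A-5 minus B-2, 0.21 for A-6 minus B-2, 0.11 for A-5 minus B-1 and 0.02 for A-6 minus B-1, where 1 was higher and 2 lower. Of the 10, 6 had the same sign in every pairing. Without A-5, 7 were higher and 1 lower, without B-2, 6 and 0, and with hairpin means of all lines, 2 and 0. IL1RAP, the shared co-receptor of interleukin-1 and interleukin-33, read 291 and 305 with A-5, 234 and 236 with A-6, 142 and 140.2 with B-1, and 112 and 123 with B-2, so every construct of one target stood above every construct of the other (0.94 ± 0.11; limma, adjusted p = 5.07e-07). A second IL1RAP probe set gave 0.05 (adjusted p = 0.898). IL10RA, the ligand-binding chain for interleukin-10, read 105, 111, 70.9 and 68.5 with GSK3A hairpins and 19.7 to 45.8 with GSK3B hairpins (1.06 ± 0.14), and its partner chain IL10RB averaged 518 ± 31.5 and 368 ± 15.5 (SD, n = 4 each; 0.48 ± 0.10). IL1RAP and IL10RB were also among the 24 genes that passed with hairpin means. IL13RA1 (0.62), IL6ST, the gp130 chain (0.45), IL1R1 (0.39), IFNGR2 (0.29) and IFNAR2 (0.27) passed as well. The granulocyte receptor CSF3R, at 0.26 (adjusted p = 0.376), did not.

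Inflammatory and interferon genes leaned the same way, where 5.2% of all genes were higher and 5.37% lower. Of 34 NF-kB and inflammation genes, 8 were higher and 0 lower (median 0.15): PTX3, the chemokines CCL4 (0.89 ± 0.06) and CCL20 (0.26), TNFAIP2 (0.88), the interleukin-1 antagonist IL1RN (0.69), TNF (0.66), the inhibitor NFKBIA (0.41) and PTGS2 (0.16). These rested on A-5 and B-2, since 3 were higher and 1 lower without A-5 and 1 was higher and 1 lower without B-2, and CCL4 was at −0.02 for A-6 minus B-1. Of 42 interferon response genes, 9 were higher and 0 lower (median 0.10), among them TRIM22 (0.75 ± 0.11), the tether BST2 (0.75 ± 0.12), MX2 (0.64 ± 0.09), IFITM2 (0.46) and IFITM3 (0.37), and all 9 had the same sign in every pairing. The count was 4 without A-5 and 4 without B-2. Of 30 antigen presentation genes, CD86, the immunoproteasome subunit PSMB9 (0.79 ± 0.11) and B2M (0.12 ± 0.04) were higher and 0 lower. That is 10% of the list past the test, near the 10.6% of all genes.

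Genes of the mature granulocyte went both ways. Of 37 measured, 5 were higher (HP, FPR1, QSOX1, CDA, ORM1) and 1 lower (GCA), with a median of 0.01. In this list 16.2% passed, against 10.6% of all genes. The formyl peptide receptor FPR1 (0.51 ± 0.10) and cytidine deaminase CDA (0.25 ± 0.05) had A-6 below B-1, at −0.29 and −0.43. Of 17 primary granule genes, 0 were higher and 4 lower (PRG2, DEFA4, the eosinophil ribonuclease RNASE2 at −0.29, and the Charcot-Leyden protein CLC at −0.19 ± 0.04), with a median of −0.14 against a background of 5.37% lower. CLC was dim and had opposite signs by construct, with 0.35 for A-5 minus B-2 and −0.74 for A-6 minus B-1. The sign held across all 4 pairings for only 2 of the 4 lower genes. For A-5 minus B-2, 3 members of this list were higher and 3 lower. The other pairings had 0 higher, with 4 (A-5 minus B-1), 6 (A-6 minus B-1) and 3 (A-6 minus B-2) lower. MPO was at −0.14 ± 0.10 (limma, adjusted p = 0.51). CEACAM6, an adhesion protein of granulocytes outside these lists, read 30.7 to 35.0 with GSK3A hairpins and 46.5 to 75.9 with GSK3B hairpins (−0.63 ± 0.07) and passed with hairpin means.

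Of 35 myeloid transcription factors, KLF4, ETS2 (0.43) and RXRA (0.23) were higher, and MYB, GFI1, a repressor of the granulocyte lineage (−0.46 ± 0.05), and CEBPE, a factor of late granulocyte maturation (−0.29 ± 0.06), were lower. GFI1 did not overlap between targets, while CEBPE did. CEBPA (0.09 ± 0.08) and SPI1, which encodes PU.1 (−0.04 ± 0.06), did not pass (limma, adjusted p = 0.62 and 0.804). Of 29 stem and progenitor genes, 2 were higher (IL1RAP and PBX3, 0.48 ± 0.06) and 3 lower (CD38, MYB and GATA2, −0.41). That is 17.2% of this list and, above, 17.1% of the transcription factors, against 10.6% of all genes. MEIS1, at −0.02 ± 0.14, was near the floor of the array.

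Genes of ribosome production were often lower, where 5.37% of all genes were lower. Of 39 MYC and ribosome biogenesis genes, 15 were lower with GSK3A hairpins and 0 higher, with a median of −0.22, and all 15 had the same sign in every pairing. Besides RRN3 they included the importin IPO4 (−0.60 ± 0.09), the methyltransferase NOP2 (−0.49 ± 0.10), the processome protein RRP12 (−0.49 ± 0.08), PES1 (−0.38 ± 0.07) and nucleolin, NCL (−0.22 ± 0.06). The count was 9 without A-5, 2 without B-2 and 0 with hairpin means. MYC itself read 4934, 4454, 5651 and 5164 with GSK3A hairpins and 6057, 6622, 8395 and 8117 with GSK3B hairpins. Those groups did not overlap, with both GSK3B constructs above both GSK3A constructs, yet the difference of −0.54 ± 0.19 missed the threshold (limma, adjusted p = 0.071). Mitochondrial ribosome genes were lower in 9 of 43 and higher in 0 (median −0.12), among them MRPL46 and MRPS27 (both −0.48) and MRPL4 (−0.41). MRPL46 leaned on A-6 (0.03 for A-5 minus B-1, −0.83 for A-6 minus B-1), and the list's count was 2 lower and 1 higher without B-2.

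The cell cycle lists differed from one another. Of 44 DNA replication genes, 1 was lower (UNG, −0.47 ± 0.08), and of 41 mitosis genes 1 was higher (the phosphatase CDC25B, 0.40 ± 0.12), with a mitosis median of 0.17. The mitosis count depends on the spread used: in limma fits of the 8 hairpin arrays alone 23 were higher and 1 lower, and with a replicate block over all arrays 14 were higher and 0 lower. Of 18 G1 cyclins, kinases and inhibitors, 5 were higher and 2 lower, which is 38.9% against 10.6% of all genes. RB1 averaged 368 ± 18.9 and 293 ± 11.8 (SD, n = 4 each; 0.31 ± 0.06), and the inhibitors CDKN2D (0.43), CDKN1A (0.38 ± 0.12) and CDKN1C (0.29) and the cyclin CCND3 (0.49 ± 0.11) were higher, while CCND2 (−0.46 ± 0.11) and CDKN2A (−0.15 ± 0.04) were lower. The CDKN2A signal is in doubt, because this gene had been listed as one that HL-60 lacks. The sign held across all 4 pairings for only 3 of the 7 G1 genes past the test. A-5 minus B-2 had 5 higher and 2 lower, while A-6 minus B-1 had 0 of either. There CCND3 was at −0.45, CDKN1A at −0.26 and CCND2 at 0.02, each opposite in sign to its mean difference. Of 27 apoptosis regulators, 7 were higher and 1 lower (CASP9), with a median of 0.14. They held both survival and death genes: BCL2L2, which encodes the survival protein BCL-W (0.71 ± 0.07), the BH3-only gene PMAIP1 (0.68 ± 0.14), and APAF1 (0.52), CASP1 (0.46), CASP8 (0.42), TNFSF10 (0.42) and BAK1 (0.41). The 8 that passed had the same sign in every pairing. The higher count was 2 without A-5 and 3 without B-2.

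**Figure D4:**
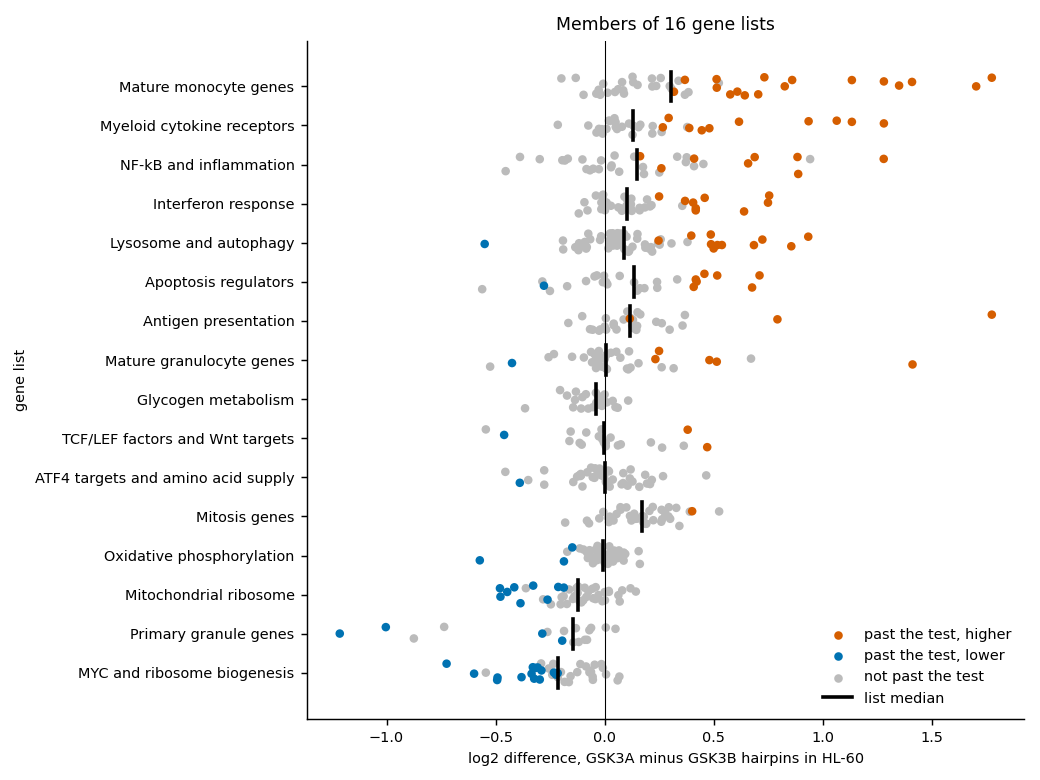
Log2 difference of GSK3A minus GSK3B hairpins in HL-60 (horizontal axis) for each measured member of 16 gene lists (points), coloured by whether it passed the test, with list medians (black bars). Monocyte genes have the highest median, 0.30, and MYC and ribosome biogenesis genes the lowest, −0.22, while glycogen and ATF4 lists lie around 0.

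Lysosome and autophagy genes were higher in 11 of 59 members and lower in 1, with a median of 0.09, where 5.2% of all genes were higher. The sulfatase IDS (0.93 ± 0.15), the proton pump subunit ATP6V1A (0.86 ± 0.10), the transcription factors TFE3 (0.72) and TFEB (0.49), the protease CTSB (0.68 ± 0.11), NEU1 (0.54) and FUCA1 (0.52) were among them. ATP6V1A read 1044 to 1238 with GSK3A hairpins, 897 and 881 with B-1, and 422 and 464 with B-2, so B-2 was the one apart. LAMP2 (−0.55 ± 0.09) was lower through A-5, with 0.22 for A-6 minus B-2. Without A-5 the counts were 4 and 1, and without B-2 they were 3 and 1. The CLEAR letters stood in 7 of 44 promoters of the list (15.9%; 3.52% of those of measured genes), and none of those 7 genes was among the 11.

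Pathways nearest to the kinase had 0 to 18.8% of their members past the test, against 10.6% of all genes. The largest of these shares counts GSK3B itself, which the hairpins target. Of 16 genes of the kinase and the complex that degrades beta-catenin, GSK3B and the casein kinases CSNK1A1 (0.42 ± 0.05) and CSNK1D (0.25 ± 0.08) were higher and 0 lower. CSNK1A1, the priming kinase for beta-catenin, averaged 1063 ± 48.7 with GSK3A hairpins, 807 ± 106 with GSK3B hairpins (SD, n = 4 each) and 1006 in the controls, so the GSK3B side was the lower one. It was higher in the other lines too, by 0.27 in THP-1 and U937 and by 0.44 in MOLM-14. CTNNB1, beta-catenin itself, was at 0.15 ± 0.08 (limma, adjusted p = 0.272). Of 21 TCF/LEF factors and Wnt targets, TCF7L2 (0.47 ± 0.09) and PPARD (0.38 ± 0.12) were higher and CCND2 lower, and a second PPARD probe set gave −0.0017. LEF1 was near the floor of the array at 7.16 and 7.18. Of 23 glycogen genes 0 passed, with the synthase GYS1 at 0.05 ± 0.12 (adjusted p = 0.917) and the branching enzyme GBE1 at −0.36 (adjusted p = 0.0823, arrays not overlapping).

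Metabolic and stress lists had 0 to 25% of their members past the test, against 10.6% of all genes. The NRF2 and haem list had 4 of 24 higher, led by BLVRB, biliverdin reductase B, which read 123 to 154 with GSK3A hairpins and 62.8 to 73.4 with GSK3B hairpins (0.81 ± 0.12; limma, adjusted p = 4.17e-05) and also passed with hairpin means. Of 36 glycolysis and hypoxia genes, the list with the largest of these shares, 6 were higher (HK1, BNIP3L, SLC2A3, PFKM, P4HA1, HIF1A) and 3 lower (ADM, SLC2A5, GPI). Of 25 serine and one-carbon enzymes, MTHFD2, GCSH (−0.27) and MTHFD1 (−0.26) were lower. ATF4 targets had 1 of 44 lower (SLC43A1, −0.39), the unfolded protein response 0 of 28, and cholesterol genes FADS1 (0.75) and ELOVL6 (0.63) higher and PMVK (−0.22) lower of 27. Oxidative phosphorylation had 3 of 42 lower (NDUFC1, COX5A, ATP5PB), of which NDUFC1 rested on A-6 at −1.18 against 0.06 with A-5 (both minus B-1). Heat shock proteins had 3 of 22 lower, with the HSP90 partner CHORDC1 (−0.54 ± 0.13) at 399 ± 10.4 and 590 ± 42.4 (SD, n = 4 each). Of 27 integrins and adhesion genes, 3 were higher (ITGB7, ADGRE5, ITGAE) and ITGB1 lower, and of 23 histone genes H1-10 was higher and H3C4 lower.

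The 24 genes that passed with hairpin means were, on the higher side, GSK3B, CD86, CLEC7A, KCTD12, IL1RAP, BLVRB, ZSCAN18, IL10RB, RNF13, GALNT7 and NR1H3, which encodes the oxysterol receptor LXR-alpha. On the lower side they were PRG2, NETO2, ATOX1, SLC25A4, CEACAM6, BICD2, PIGH, MZB1, VILL, KRI1, TIPIN, GTPBP4 and MAP6D1. All but TIPIN (−0.32; limma on the arrays, adjusted p = 0.193) were among the 1286, with the same sign. SLC25A4, the mitochondrial ADP/ATP carrier, averaged 30.03 ± 1.48 and 60.3 ± 8.32 (SD, n = 4 each), and the zinc finger gene ZSCAN18 56.6 ± 11.9 and 26.8 ± 3.49.

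Some genes split the constructs of a target more than the targets. TNFAIP6, an inflammation-induced hyaluronan-binding protein, read 158 and 161 with A-5, 76.2 and 62.6 with A-6, 446 and 447 with B-1, and 79.4 and 109 with B-2. B-1 alone was high, and the mean difference of −0.86 ± 0.06 passed although A-5 minus B-2 was 0.66. CNN2, a calponin, read 66.6 and 62.1 with A-5 and 202 to 338 on the other arrays, and A-6 minus B-2 was 0.02. S100A10, which binds annexin A2, was at 0.98 for A-5 minus B-1 and at −0.81 for A-6 minus B-1.

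The same contrast in the other lines passed for 269 genes in THP-1, 1975 genes of MOLM-14 and 609 genes of U937 (limma). In HL-60 it departed from the mean of those lines in 242 genes (1.99%), 139 upward and 103 downward, and 201 of them were among the 1286. With hairpin means of all lines 2 genes departed (PRG2 and MZB1), within columns 7 to 11 of the array plate, read from the array names in the labels, it was 3 (PRG2, CLEC7A and ZSCAN18), and within columns 1 to 6 it was 0 (limma; 422 at an unadjusted p under 0.05). The count was 123 without B-2, 602 without A-6 and 804 without B-1. MZB1 and ZSCAN18 were named after their values were seen. The genes named here were chosen for their size in HL-60, which favours such a departure. Among the 15 higher genes 10 departed, and among the 15 lower genes 8. CLEC7A was at 0.01, −0.02 and −0.01 in THP-1, MOLM-14 and U937 (departure 1.36, adjusted p = 1.13e-11) and CD14 at 0.15, 0.07 and 0.01 (1.33, adjusted p = 3.74e-13). PRG2 and DEFA4 were within 0.09 of 0 in those lines. Others were shared: TRAF3IP3 was at 0.88, 0.92 and 0.63, ATOX1 at −0.74, −0.61 and −0.45, NETO2 at −0.54, −0.64 and −0.57, RRN3 at −0.55, −0.59 and −0.78, and MTHFD2 at −0.60, −1.23 and −0.70, and each of these passed in every line. CX3CR1 passed in every line too, at 0.45, 1.22 and 1.10. CD86 passed in MOLM-14 (1.40) and U937 (0.96) and not in THP-1 (0.09), and its departure of HL-60 missed the threshold (adjusted p = 0.0926). No gene of the 30 passed in another line with the opposite sign.

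**Figure D5:**
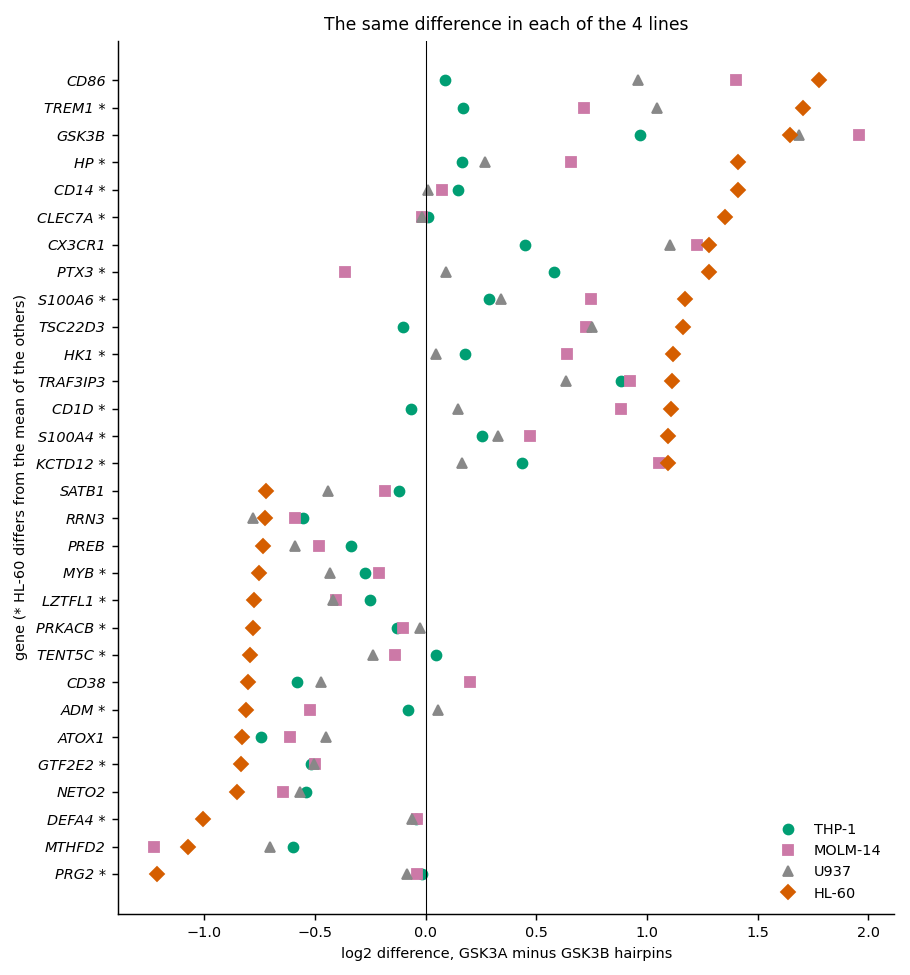
Log2 difference of GSK3A minus GSK3B hairpins in each line (horizontal axis) for the 15 highest and 15 lowest genes of HL-60 (vertical axis), with an asterisk where HL-60 departed from the mean of the other lines at an adjusted p under 0.05 (limma). The HL-60 points of CD14, CLEC7A, PRG2 and DEFA4 stand alone, while those of ATOX1, NETO2 and RRN3 lie beside the other lines.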

How the data were processed

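RNA of 44 samples of infected cells was hybridized to Affymetrix high-throughput arrays, 1 array per sample. The deposited intensity values are the authors' linear summaries of 22277 probe sets. RMA and MAS5 are both named in the submitters' processing notes, and which of them made the table is not given in the sources used here. All data columns matched a labelled sample.

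Values were turned into log2(intensity + 16) and quantile-normalized, since array medians spanned 0.154 against a limit of 0.1. The 19724 probe sets that name 1 gene were reduced to the brightest per gene (12165 genes), with symbols updated through the Entrez identifier for 19707. The means of 20 groups of line and construct were fitted on 44 arrays with limma 3.58.1 in R 4.3.3 (24 residual degrees of freedom), and the contrast takes the mean of constructs 5 and 6 minus the mean of constructs 1 and 2 in HL-60. Tests were two-sided with a Benjamini-Hochberg threshold of 0.05. The number of arrays limits the precision. Data were simulated for this contrast with 12165 genes. Of genes changed by 0.5 and by 1 (log2), 91% and 100% were recovered, and 4.5% of calls were false. The simulation held no differences between constructs of one target. The real constructs did differ, so 4.5% is not an error rate for the real calls.

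Named genes are the targets, the 15 highest and 15 lowest differences past the test without overlap, up to 3 members per list by adjusted p, a fixed set of myeloid and Wnt genes (of which AXIN2 and HOXA9 had no probe set naming them alone, nor had the identity gene CD33), the 3 per direction that split constructs most and the 5 per direction that depart most from the other lines. Further list members, CEACAM6 and the genes that passed with hairpin means were named after their values were seen. The 35 lists (1092 genes, 978 measured) were written from general knowledge. The members and lists were chosen with earlier results of these data known. Alternatives were other normalization, pseudocounts, a filter on dim genes, fits of HL-60 alone, a replicate block, hairpin means, plate columns (from the array names in the labels), single arrays or constructs left out, a second probe set and array weights.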

Additional observations from a re-analysis of the deposited data

Results flagged for a closer look

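Single arrays stood apart from the other 3 of their target in 4 of the named genes, by the gap to the nearest array over the range of the 4 (Dixon ratio). Chance gives such a gap in about 1 in 20 groups, and every named gene was looked at for both targets. ELOVL6 had a ratio of 0.923 with GSK3A hairpins, where one A-5 array read 165 and the others 116 to 119.6. NFE2L2 had 0.878 with GSK3A hairpins, where the other A-5 array was the highest at 731. RB1 had 0.913 and CTNNB1 0.867 with GSK3B hairpins, in both cases through one B-1 array, at 310.4 and 934.

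For 43 named genes the difference between the targets in HL-60 departed from its mean over THP-1, MOLM-14 and U937 (limma, adjusted over 12165 genes). Their adjusted p-values ran from 3.74e-13 to 0.0462. Many were chosen for their size in HL-60. The largest departures upward were of surface and secreted proteins: CLEC7A 1.36, CD14 1.33, PTX3 1.18, TREM1 1.06 and HP 1.05. Smaller ones were of HK1 and CCL4 (0.83 each), CD1D 0.79, S100A4 and the lipase PLA2G7 (0.74 each), CRISPLD2 0.72, S100A6 0.71, PMAIP1 0.67, BLVRB 0.65, IL10RA 0.64, KCTD12 and ELOVL6 (0.54 each), PFKM and S100A10 (0.51 each), PSMB9 0.49, BCL2L2 and IL1RN (0.46 each), FPR1 0.44, MX2 0.41 and PBX3 0.37. The largest departures downward were of PRG2 at −1.17, DEFA4 at −0.96, TNFAIP6 at −0.85 and the granulocyte serpin SERPINB10 at −0.80. Then came PRKACB at −0.69, TENT5C at −0.68, ADM at −0.63, MYB at −0.45, LZTFL1, IPO4 and NEFH at −0.42, GTF2E2 and RRP12 at −0.33, CEBPE at −0.31, MRPS27 at −0.26, TRIAP1 at −0.24, COX5A at −0.21 and CLC at −0.20. A departure is one of size and can stand beside a difference of the same sign elsewhere. In THP-1, MOLM-14 and U937, GTF2E2 was at −0.52, −0.50 and −0.50 and S100A6 at 0.29, 0.75 and 0.34, passing in each. KCTD12 was at 0.44, 1.05 and 0.16 and passed in THP-1 and MOLM-14.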

How the results depend on the processing

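The replicate spread behind the fit is the main limit: the count of genes past the test depends on what is taken as a replicate, and the alternatives with the hairpin as the unit rest on 2 constructs per target. The value for genes past the test, 1286 as reported, was 2775 with the 8 hairpin arrays alone, 2679 with the 11 HL-60 arrays alone and 2357 with array weights. It was 24 with hairpin means of all lines and 0 with hairpin means of the 8 arrays (limma; 727 at an unadjusted p under 0.05), where GSK3B kept its difference of 1.65 at an adjusted p of 0.831. It was 5 within plate columns 1 to 6 and 12 within columns 7 to 11, which leave 1 array per construct, and 35 with construct as a random block, an alternative chosen after seeing the data. Without construct 5 it was 664, without construct 2 it was 469, and leaving out 1 array at a time gave 921 to 1025. The share of higher genes among those past the test was 49.2%, and 42.3% with median scaling.

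Genes whose difference in HL-60 departs from the other lines numbered 242. The number was 2 with hairpin means of all lines, 0 within columns 1 to 6 and 3 within columns 7 to 11, 602 without construct 6, 804 without construct 1, 123 without construct 2, 572 with array weights, and 131 to 162 with 1 array left out.

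Replicate numbers did not pair the HL-60 samples by the data: the deviations of same-numbered arrays from their construct means correlated at 0.0583 to 0.118. The other lines, whose arrays also set the spread in the test, were not looked at in this way. With the replicate block, genes past the test were 2914 in the 8 arrays and 2500 in all arrays, and 1132 genes departed from the other lines. GSK3A, at −0.13 in each fit, passed with the replicate block (adjusted p = 0.0424 in the 8 arrays and 0.0447 in all arrays) and with array weights (0.0358). The cause of these differences was not tested.

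Signs turned for genes that rest on a construct. Without construct 5 the values were CDA −0.024, LAMP2 0.04, ATP5PB 0.054, ST13 0.036, ITGB7 −0.10, SLC2A3 −0.038, S100A10 −0.26 and NEFH 0.030. Without construct 6 they were CLC 0.037, NDUFC1 0.045 and ITGB1 0.20, and without construct 1 CLC 0.12, H3C4 0.028, ITGAM 0.45 and TNFAIP6 0.16. Without construct 2 they were FPR1 −0.010, CDA −0.15, CCND3 −0.090, VIM −0.041 and SLC2A3 −0.46. On the second probe set HP was at −0.29, PPARD at −0.0017 and COX5A at 0.011. A further 17 named genes, MYB and IL1RAP among them, kept their sign there but no longer passed. Of the 97 named genes past the test, 78 passed under this setting. It keeps the only probe set of a gene that has 1, so such genes could differ little. No named result turned its sign under another normalization, pseudocount or filter on dim genes. The B cell list had no gene left under that filter.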
